A study of Homo sapiens with 11 samples.

Results

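The transcripts described here are the mRNAs of 38 translation initiation factors, and the measurement is which stretches of them were recovered with the ribosomal protein RPS19 and with 2 of its substituted forms. The members were chosen by name, and every deposited window that carries a member's name was taken. Of the 38 genes, 37 had a window in at least 1 list, and only DENR had none. Together they held 653 of the 122708 distinct windows in the lists, which name 8697 genes in all.

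The study used enhanced crosslinking and immunoprecipitation (eCLIP), in which ultraviolet light joins RNA to protein, RNase I shortens the RNA, and the RNA that precipitates with the protein is sequenced beside a size-matched input. HEK293T cells, a human embryonic kidney line, were transfected with plasmids for V5-tagged RPS19, and a V5 antibody pulled down the tagged protein. The 3 immunoprecipitation groups are wild-type RPS19 (WT, 3 samples), the substitution R62W (3 samples) and the substitution R101H (2 samples), with 3 input samples from cells without a plasmid. Both substitutions are known from Diamond-Blackfan anemia, and the comparisons ask how each changes the RNA recovered with RPS19. The tagged protein was made from a plasmid on top of the cell's own RPS19. Input and precipitate came from cells that differ in transfection, so a transcript's higher level in transfected cells and its stronger recovery with RPS19 cannot be told apart. Whether the replicates came from separate cultures is not in the labels, and the p-values below therefore rest on a spread between libraries that may be technical. The label HEK293T could not be checked against marker genes, because the lists hold enriched windows and no expression levels.

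Initiation factors bring the small ribosomal subunit to the start codon of an mRNA. The cap-binding protein eIF4E, the scaffold eIF4G and the helicase eIF4A open the 5′ end, eIF3 bridges the scaffold and the small subunit, and eIF2 carries the initiator tRNA. The small subunit then scans with eIF1, eIF1A and eIF5, and eIF5B joins the large subunit. RPS19 is a protein of the small subunit, so an mRNA engaged by ribosomes can be crosslinked near it. The transcripts below are described as RNA recovered with RPS19, not through the work of the proteins they encode.

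Each list was made from all replicates of its group. A window is a stretch of up to 100 bases that passed the authors' enrichment test, with a highest q-value of at most 0.2, in at least 2 replicates. The value given for a window throughout is that of the authors' deposited table, a log2 odds ratio of precipitate over input, as the mean of the replicates in which it passed. The lowest, mean and highest values fix each single replicate value, although not which replicate it belongs to. A window absent from a list has no value there and is not a measured 0. Totals per library are not given. The WT list holds 15402 windows, the R62W list 86567 and the R101H list 93331, with median pooled counts of 47 to 49 in the precipitate and 11 to 12 in the input.

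Initiation factor transcripts were listed in every group, with far more windows for the substituted proteins. WT gave 86 of their windows, R62W 487 and R101H 531, which is 5.66 and 6.17 times the WT number. All windows together stood at 5.62 and 6.06 times WT, close to the members' factors. Their share of the list was 0.558% in WT (95% Clopper-Pearson interval 0.447 to 0.689), 0.563% in R62W (0.514 to 0.615) and 0.569% in R101H (0.522 to 0.619). These intervals overlap, and they cover counting error only. Of the precipitate counts in listed windows, members held 0.398%, 0.785% and 0.888%. Those sums cover only windows and replicates that passed, so they grow with what was listed.

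Of the 37 members listed in any group, 22 had a window in WT, beside 38% of all genes listed in any group. In R62W 35 members did, beside 89.5% of all genes, and in R101H 37 did, beside 93.5%. The 16 members without a WT window were EIF1, EIF2S1, EIF2S3, EIF2A, EIF2B1, EIF2B3, EIF3C, EIF3E, EIF3F, EIF3J, EIF3K, EIF3M, EIF4E, EIF5B, DENR and MCTS1. In R62W the absent members were EIF2A, EIF3J and DENR. No member had fewer windows with a substituted protein than with WT. R62W gave more windows than WT for 34 members and the same number for 4, and R101H gave more for 37 and the same number for 1. The same counts over all genes were not made, and the whole lists stood at 5.62 and 6.06 times the WT list. Between the substituted proteins, R101H had more windows for 23 members, fewer for 9 and as many for 6. The number of windows also grows with the length of a transcript, so members are not ranked by it as levels.

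**Figure D1:**
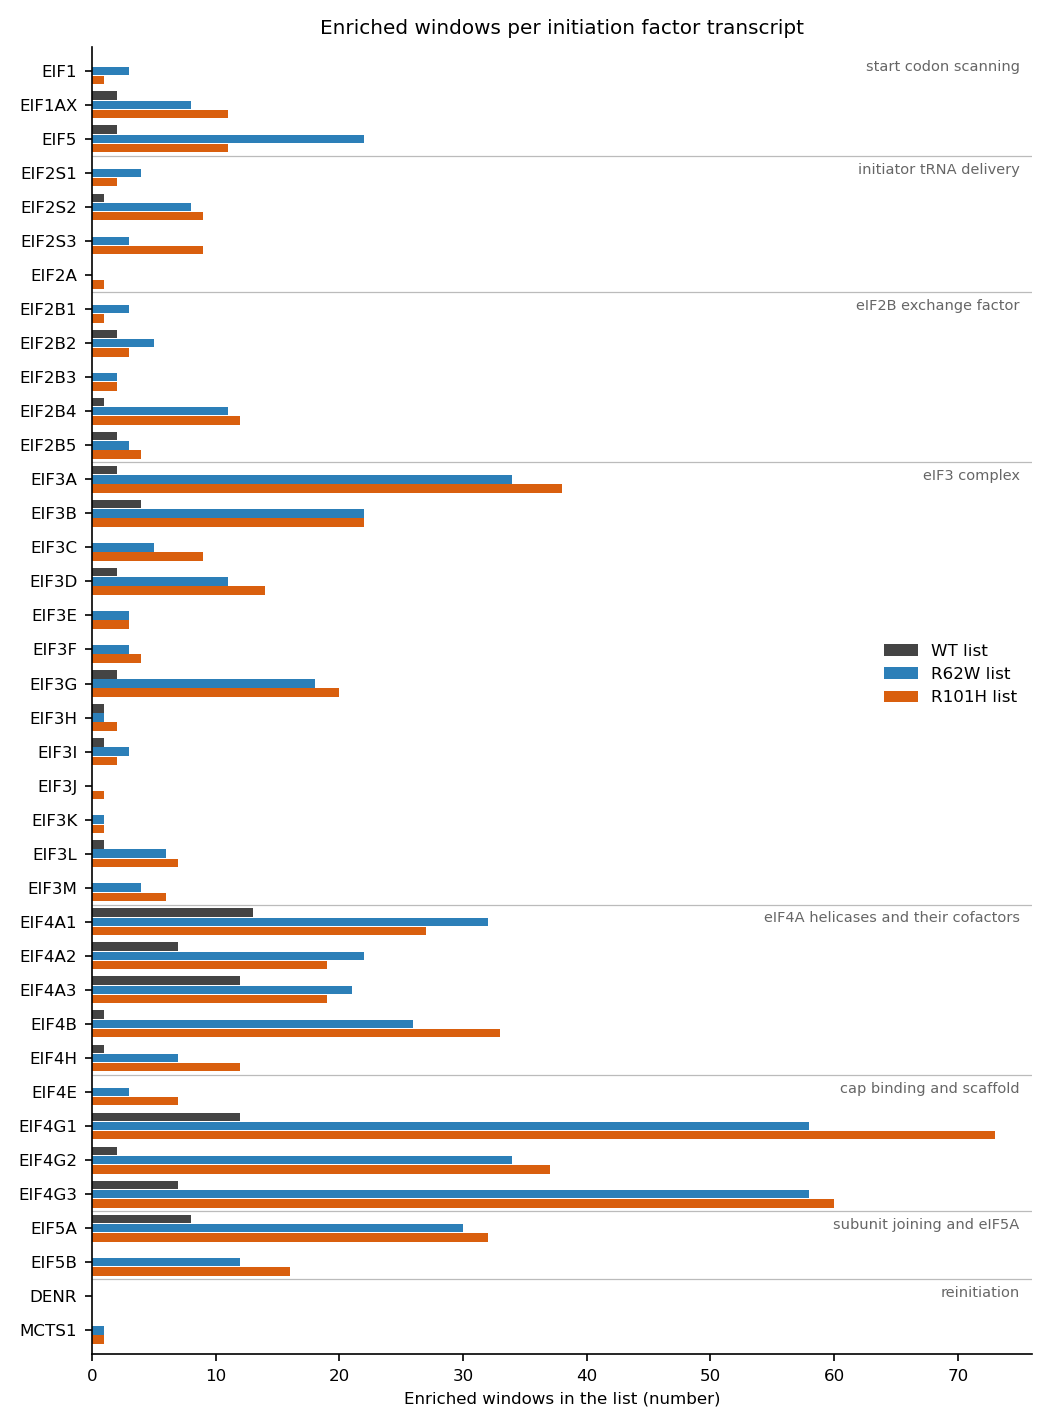
Number of enriched windows (horizontal axis) for each of the 38 members (vertical axis, grouped by role) in the WT, R62W and R101H lists; each bar is 1 deposited list and has no spread of its own. The longest bar is that of EIF4G1 in R101H, with 73 windows. EIF4G1 and EIF4G3 have 58 each in R62W, EIF4A1 has the most in WT with 13, and DENR has no bar.

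The roles did not hold the same part of the member windows in each list. The eIF4A helicases and their cofactors held 34 of the 86 WT windows (39.5%), 108 of 487 in R62W (22.2%) and 110 of 531 in R101H (20.7%). Cap binding and scaffold transcripts held 24.4%, 31.4% and 33.3%, and the eIF3 subunits 15.1%, 22.8% and 24.3%. In WT 5 members (EIF4A1, EIF4A3, EIF4G1, EIF5A and EIF4A2) carried 60.5% of the member windows. The 5 members with the most windows carried 44.4% in R62W and 45.4% in R101H, led by EIF4G1 and EIF4G3 in both. With 1 list per group, these shares have no test between groups.

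The values of listed member windows were modest in all groups. The median log2 odds ratio over member windows was 1.57 for WT, 1.55 for R62W and 1.66 for R101H, beside 2.03, 1.90 and 2.00 over all windows. Member windows also rested on more input, with a median of 30.5, 29 and 25 pooled input counts beside 11, 12 and 11 over all windows. Among windows with 10 or more input counts, the medians were 1.46, 1.40 and 1.51 for members and 1.60, 1.61 and 1.66 for all. The part of the input depth in the lower member values was not tested further. The median share of G and C bases in member windows was 44.4%, 46.2% and 46.2%, beside 50%, 50% and 49.2% over all windows.

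Member windows lay mostly in coding sequence. In WT 58 of 86 were coding (67.4%, 56.5 to 77.2), beside 35.8% of all WT windows. The R62W share was 62.4% (58.0 to 66.7) beside 53.2%, and the R101H share was 60.1% (55.8 to 64.3) beside 53.7%. Intron windows, splice site windows included, made up 9.30%, 10.9% and 12.1% of member windows and 31.4%, 13.5% and 10.7% of all windows. The 3′ UTR held 12.8%, 13.3% and 16.4% of member windows beside 21.4%, 23.2% and 26.3%, and the 5′ UTR 3.49%, 6.16% and 5.46% beside 3.49%, 4.03% and 3.88%. Windows of a gene are not independent, so the intervals are too narrow as a comparison. The largest gap between members and all windows was in the WT list, where introns make up a large part of all windows.

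**Figure D2:**
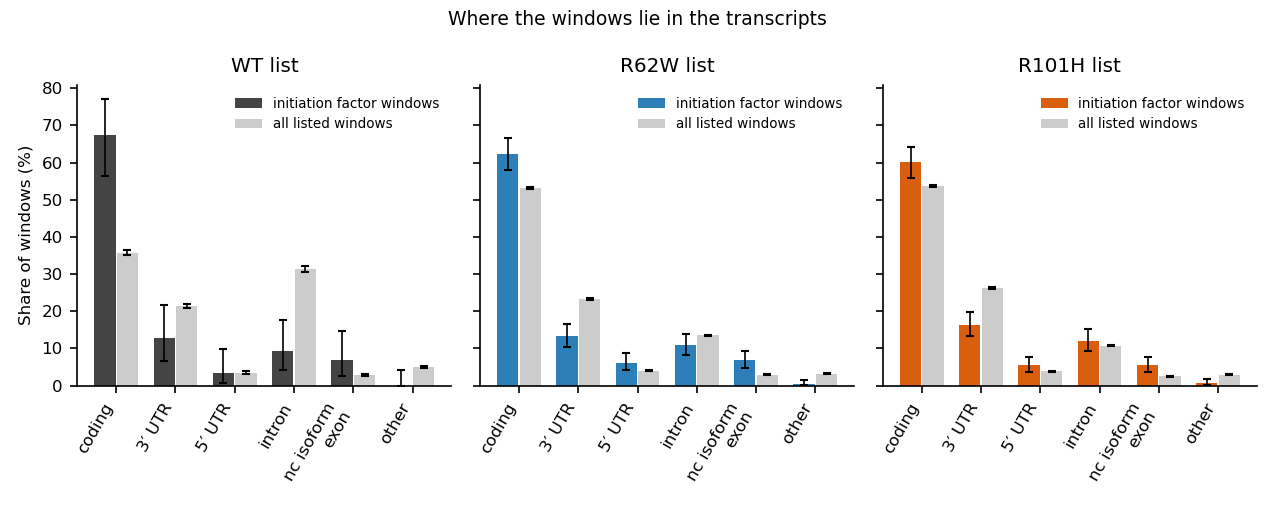
Share of windows in percent (vertical axis) by place in the transcript (horizontal axis; "nc isoform exon" is an exon of a non-coding isoform), for member windows (coloured) and all windows (grey) in each list, with exact 95% intervals as bars. The coding share of members is 67.4%, 62.4% and 60.1%, above the grey bar in each list.

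Windows that span a stop codon were listed for 7 members in WT (7 windows, 8.14% of member windows beside 2.65% of all), 17 in R62W (19 windows, 3.90% beside 2.91%) and 15 in R101H (16 windows, 3.01% beside 2.91%). The WT members were EIF2B2, EIF2B5, EIF3D, EIF3G, EIF3I, EIF4A3 and EIF5A. Start codon windows numbered 2 in WT, of EIF4A1 and EIF5A, 12 in R62W and 11 in R101H. They made up 2.33%, 2.46% and 2.07% of member windows, beside 1.26%, 1.72% and 1.72% of all windows. Their median values were 1.00, 1.29 and 1.24, below the coding medians of 1.46, 1.42 and 1.60 in the same lists. Over all windows the start codon medians were also below the coding ones, at 1.54, 1.57 and 1.59 beside 1.72, 1.82 and 1.93.

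Nearly all WT windows of these transcripts were also listed for the substituted proteins. Of the 86 WT windows, 84 were in the R62W list at the same coordinates (97.7%, beside 79.6% of all WT windows) and 78 in the R101H list (90.7%, beside 72.0%). R62W and R101H shared 366 windows, which is 75.2% of the R62W and 68.9% of the R101H member windows, beside 69.2% and 64.2% of all windows in those lists. In all 3 lists stood 77 windows of 22 members, while 289 stood in R62W and R101H and not in WT. R101H alone listed 164, R62W alone 114 and WT alone 1. The WT window without a partner was a coding window of EIF4G3 at chr1:21176722-21176736, with replicate values of 1.67 and 2.03. The lists share inputs in part, so overlap between them is not independent evidence.

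EIF4G1 encodes the main scaffold that joins the cap-binding protein, the helicase and eIF3, and it had the most windows with R101H and, level with EIF4G3, with R62W. WT listed 12 of its windows, R62W 58 and R101H 73. All 12 WT windows, 9 coding and 3 intronic, were in the other lists too. Over these 12 windows the mean log2 odds ratio ran from 1.13 to 2.39 in WT (median 1.56), from 1.69 to 2.32 in R62W (median 2.09) and from 1.94 to 2.89 in R101H (median 2.57). In 10 of the 12, every R101H value was above every WT value, and in 1 every R101H value was below, beside 48.4% and 3.84% of all windows shared by those lists. R62W values lay wholly above WT in 4 of the 12, beside 24.1% of all shared windows. These counts were not tested.

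Single EIF4G1 windows show the replicate spread behind those medians. At the coding window chr3:184325036-184325114 the WT values were 0.88, 1.30 and 1.50, the R62W values 1.60, 2.20 and 2.73, and the R101H values 2.45 and 2.99. Neither substituted group overlapped WT there, while R62W and R101H overlapped each other. Further along, at chr3:184331946-184332015, WT had 1.18, 1.34 and 1.47, R62W had 1.88, 1.88 and 2.09, and R101H had 2.38 and 2.54. These 3 sets did not overlap. The EIF4G1 window with the highest WT value among those with 10 or more input counts, chr3:184327645-184327704, had 1.96 and 2.43 in WT, 2.01, 2.13 and 2.81 in R62W, beside 2.76 and 3.03 in R101H. There WT and R62W overlapped, and both R101H values lay above WT.

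**Figure D3:**
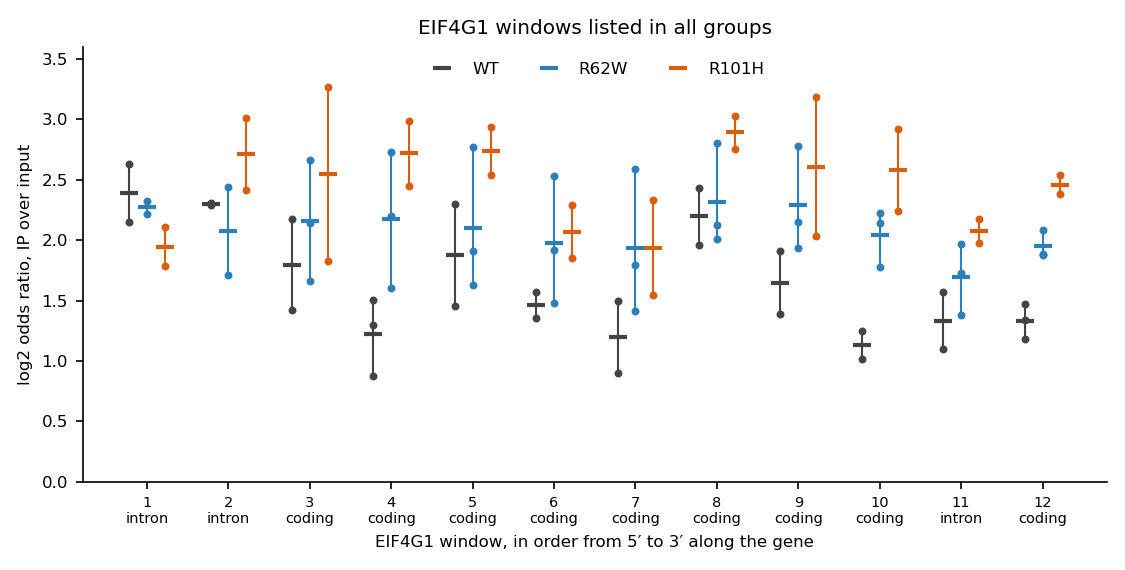
Log2 odds ratio of precipitate over input (vertical axis) for the 12 EIF4G1 windows in all lists, in order along the gene (horizontal axis); points are single replicates in which the window passed, lines join the lowest and highest, and dashes are means. The R101H values lie wholly above the WT values in 10 of the 12 windows, as they do in 48.4% of all windows shared by the R101H and WT lists.

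Beyond those windows, R62W and R101H shared 39 further EIF4G1 windows that WT lacked, 29 of them coding. R101H alone listed 22, of which 13 were intronic and 7 coding. A 3′ UTR window at chr3:184335269-184335358 had the highest R101H value of any member window with 10 or more input counts, with 2.82 and 3.55 in R101H, while R62W had 1.96, 2.85 and 2.87. The highest member value in any list, 4.55 in R101H, was an EIF4G1 window at a 3′ splice site (chr3:184325772-184325850). It rested on 25 precipitate counts and 0 input counts, so its size is not well measured.

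EIF4G3, the paralogue of that scaffold, had 7, 58 and 60 windows, nearly all coding: 7, 52 and 54. Its 6 windows in all lists had medians of 1.67 for WT, 2.24 for R62W and 2.48 for R101H. At chr1:20851331-20851404 in the coding sequence, WT had 1.06, 1.61 and 1.70, R62W had 1.51, 2.17 and 2.49, and R101H had 2.81 and 2.85. R101H stood clear of both other groups, and R62W overlapped WT. The highest R101H coding window of EIF4G3 with 10 or more input counts, chr1:20829210-20829272, had 2.52 and 3.48 in R101H and 1.54 and 2.18 in R62W, and WT did not list it.

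EIF4G2, a relative of the scaffold that lacks its site for the cap-binding protein, had 2, 34 and 37 windows. Only 13 of its R62W and 14 of its R101H windows were coding, and 8 and 10 lay in exons of non-coding isoforms. Its 5′ UTR window chr11:10807379-10807462 had the highest 5′ UTR value of any member in both lists, with 2.21, 3.57 and 4.60 in R62W and 2.70 and 5.47 in R101H. That window held 3 and 2 pooled input counts, and its replicates spread widely. EIF4E, the cap-binding protein itself, had no WT window, 3 in R62W and 7 in R101H, with medians of 1.73 and 1.67.

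The helicases and their cofactors held more WT windows than any other role. EIF4A1, the main cytoplasmic helicase, had 13, 32 and 27 windows, and its close paralogue EIF4A2 had 7, 22 and 19. EIF4A3, a related helicase of the exon junction complex, had 12, 21 and 19. For these 3 transcripts R101H gave fewer windows than R62W. EIF4A1 windows also carry the names of a read-through gene (SENP3-EIF4A1) and of an overlapping gene, so their counts cannot be given to EIF4A1 alone.

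The shared helicase windows differed little between lists for EIF4A1 and more for EIF4A3. Over 12 windows each, the medians in WT, R62W and R101H were 1.51, 1.42 and 1.47 for EIF4A1 and 1.62, 1.70 and 2.12 for EIF4A3. In 6 windows of EIF4A2 they were 1.39, 1.88 and 1.83. The EIF4A3 coding window chr17:80136228-80136281 was among the highest in WT, with 2.12 and 2.19, beside 1.88, 2.24 and 3.28 in R62W and 2.03 and 3.27 in R101H, so all groups overlapped. In the EIF4A3 3′ UTR, chr17:80135303-80135395 had 1.30 and 1.87 in WT, 1.89, 2.41 and 2.53 in R62W, beside 2.72 and 3.04 in R101H, with no overlap between groups. An EIF4A1 3′ UTR window, chr17:7577767-7577826, spread widely within each group, with 1.71 and 3.62 in WT, 1.28, 2.68 and 4.05 in R62W, beside 2.52 and 3.65 in R101H.

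The helicase cofactors EIF4B and EIF4H, RNA-binding proteins that stimulate eIF4A, had 1 WT window each. EIF4B had 26 windows in R62W and 33 in R101H, of which 10 and 14 lay in the 3′ UTR. Its median values were low, at 1.10 and 1.19. EIF4H had 7 and 12 windows, with 5 and 7 in the 3′ UTR.

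The 13 eIF3 subunits, which form the large complex on the small subunit, were unequal. In WT 7 of them had a window, in R62W 12 and in R101H 13. EIF3A, the largest subunit, had 2, 34 and 38 windows, with 31 coding in R62W and 32 in R101H. EIF3B had 4, 22 and 22, EIF3G had 2, 18 and 20, and EIF3D, a subunit that can itself bind a cap, had 2, 11 and 14. The other 9 subunits had at most 1 window each in WT and at most 9 in any list. EIF3J, a loosely held subunit, had 1 window in R101H and none elsewhere.

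The median over eIF3 windows was 1.33 for WT, 1.38 for R62W and 1.61 for R101H. The highest R62W member window with 10 or more input counts was an EIF3A coding window, chr10:119049893-119049985, with 2.06, 2.79 and 3.51, and R101H had 2.28 and 3.46 there. WT did not list that window. An EIF3A 3′ UTR window that all groups listed, chr10:119035150-119035248, had 1.95 and 2.26 in WT, 1.32, 1.52 and 2.07 in R62W, beside 1.80 and 2.13 in R101H, so all groups overlapped. EIF3C has a near-identical copy, EIF3CL, whose own windows numbered 0, 5 and 1 beside 0, 5 and 9 for EIF3C, and reads cannot be split between them with certainty.

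Transcripts of eIF2, which carries the initiator tRNA, had few windows. EIF2S1, EIF2S2 and EIF2S3, the alpha, beta and gamma subunits, had 0, 1 and 0 windows with WT, 4, 8 and 3 with R62W, and 2, 9 and 9 with R101H. EIF2S3 had the lowest medians of these, 0.91 in R62W and 0.76 in R101H. EIF2A, a separate factor despite its name, had 1 window in R101H with a value of 1.46.

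The eIF2B subunits, which exchange the guanine nucleotide on eIF2, had 5, 24 and 22 windows in all, of which 5, 19 and 18 were coding. EIF2B4, the delta subunit, held 1, 11 and 12 of them. The highest WT value of any member window, 2.87, lay in the coding sequence of EIF2B5 (chr3:184137713-184137805), with 2.86 and 2.89 in WT and 2.59 and 3.15 in R62W. It rested on 2 pooled input counts in each of these lists and was not listed in R101H. The highest R62W value of any member window was in an intron of EIF2B3, at chr1:44886912-44887011, with 2.03, 4.39 and 4.73 on 8 input and 116 precipitate counts. Neither WT nor R101H listed it.

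EIF5, which makes eIF2 hydrolyse GTP at the start codon, had fewer windows with R101H than with R62W: 2 in WT, 22 in R62W and 11 in R101H. Of these, 2, 10 and 6 lay in the 5′ UTR, more than for any other member in WT and R62W, while EIF4G1 also had 6 in R101H. From base 103335061 to base 103335860 the R62W windows followed each other without a gap, and R101H lacked 4 of the 10 in all. At chr14:103335061-103335160, the 5′ UTR window in all lists, WT had 1.44, 1.94 and 2.20, R62W had 1.45, 1.76 and 2.83, and R101H had 2.12 and 2.36. These sets overlapped. The highest value, at chr14:103335561-103335660, was 1.49, 3.23 and 3.42 in R62W and 2.44 and 3.87 in R101H, on 12 and 9 input counts.

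**Figure D4:**
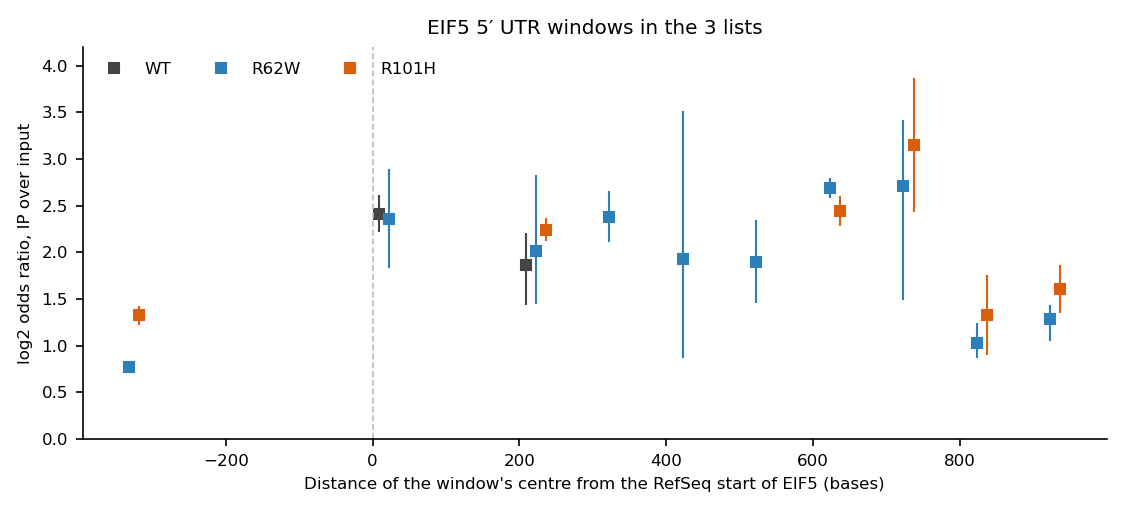
Mean log2 odds ratio (squares) and lowest to highest replicate (lines) of each EIF5 5′ UTR window, against the distance in bases of its centre from the RefSeq start of EIF5; groups are moved slightly sideways to be seen apart. R62W has 10 windows, R101H 6 and WT 2, and where groups share a window the lines overlap except at the window farthest upstream.

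The other scanning factors had less. EIF1AX, which encodes eIF1A, had 2, 8 and 11 windows, and both of its WT windows were intronic. The one near a 3′ splice site that passed in every replicate, chrX:20136221-20136305, had 1.30, 1.68 and 1.72 in WT, 1.64, 1.95 and 2.04 in R62W, beside 2.04 and 2.47 in R101H. WT and R101H did not overlap there. EIF1, which guards start codon choice, had no WT window, 3 in R62W and 1 in R101H.

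EIF5A, whose product helps ribosomes through difficult peptide bonds, had 8, 30 and 32 windows. More of them were intronic than coding with the substituted proteins, 18 against 7 in R62W and 16 against 7 in R101H. Over the 8 windows in all lists the medians were 1.20, 1.61 and 1.91. A window at a 3′ splice site, chr17:7311752-7311821, was among the highest in WT and nearly equal in all groups, with 1.88 and 2.29 in WT, 1.58, 1.89 and 2.58 in R62W, beside 1.88 and 2.51 in R101H. EIF5B, the subunit joining factor, had no WT window, 12 in R62W and 16 in R101H, nearly all coding. Of the reinitiation partners MCTS1 and DENR, MCTS1 had 1 window in R62W and 1 in R101H and DENR had none.

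The 5′ ends of these mRNAs were looked at because many mRNAs of the translation machinery begin with a run of pyrimidines, the terminal oligopyrimidine motif. Of the 38 members, 32 matched a RefSeq start (GRCh38.p14). EIF3A, EIF3E, EIF3G, EIF3H, EIF3L and EIF2S2 had no match. Of the 32, 9 had a 5′ UTR window over the first 50 bases, and 8 began with 5 or more C or T in a row, read on the transcript strand from base 1. Over all 35116 starts in the table, where a gene can have several, 5.17% began so. The members had 43 starts there, while the 8 of 32 counts 1 start per gene. Where a gene had several starts, the one with such a window was taken. These are the first 20 bases, with the run of C or T from base 1 in capitals. The first 4 sequences have both the run and a window.
EIF2S3: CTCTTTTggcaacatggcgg
EIF3F: CTTCTTTCTCgacaagatgg
EIF4A2: CTTTTCagtcgggcgctgag
EIF4B: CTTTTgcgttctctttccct
The next 4 have the run and no 5′ UTR window over the first 50 bases.
EIF2A: CTCTTTCCgggacaacatgg
EIF3D: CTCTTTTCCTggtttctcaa
EIF3K: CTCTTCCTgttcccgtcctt
EIF3M: CTTTTCCggtcggcgtggtc
The last 2 have a window and no such run, as do EIF4E, EIF4G1 and EIF5A, whose first bases are not printed.
EIF5: ggccgtgtgtcgcttcccgg
EIF4A3: acagcgaggtcggcagcggc

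Among the transcripts with the run, the windows of EIF3F (chr11:7987337-7987352), EIF2S3 (chrX:24054956-24054968) and EIF4A2 (chr3:186783577-186783610) began at the very base of the RefSeq start. None of these 5′ end windows was listed in WT. EIF3F had the highest values, with 1.56, 2.20 and 2.46 in R62W and 2.68 and 2.97 in R101H, and the groups did not overlap. EIF2S3 had 0.79, 0.80 and 1.14 in R62W and 1.09 and 1.41 in R101H, which overlapped.

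The EIF4A2 window had 0.74 and 1.56 in R62W and 0.82 and 1.44 in R101H. EIF4B had 1.06, 1.15 and 1.67 in R62W and 1.18 and 1.71 in R101H at chr12:53006431-53006483. In both windows the substituted groups overlapped. EIF4A3, without the run, had 0.80, 1.17 and 1.39 in R62W and 1.06 and 1.47 in R101H at chr17:80147057-80147151. The window at the start of EIF5, chr14:103334861-103334960, was the only one of the 9 in the WT list, with 2.22 and 2.61 in WT and 1.83 and 2.89 in R62W, and R101H did not list it. EIF4E, EIF4G1 and EIF5A had such a window in R101H alone, with mean values of 1.14, 0.55 and 0.46. The run stood at 4 of the 9 starts with a 5′ UTR window over the first 50 bases and at 4 of the 23 without one. No test was made of these counts, and windows of other classes over these bases were not counted.

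The windows in 2 lists were then compared by their replicate values, with limma over all shared windows and Benjamini-Hochberg adjustment. R62W and WT shared 84 member windows. The median difference in mean log2 odds ratio, R62W minus WT, was 0.21 over the members and 0.26 over all 12263 shared windows. Member windows were higher in R62W in 62 cases and lower in 22, so 73.8% were higher, beside 72.4% of all shared windows. None had an adjusted p under 0.05 in limma (smallest 0.433), beside 0.0% of all windows. At an unadjusted p under 0.05 limma gave 3 member windows, all higher in R62W and all in EIF4G1, beside 9.66% of all windows that were higher at that level. All R62W values lay above all WT values in 18 of the 84 (background 24.1%) and below in 3 (background 4.24%).

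R101H and WT shared 78 member windows. The median difference, R101H minus WT, was 0.43 over the members and 0.60 over all 11082 shared windows. Of the member windows, 64 were higher in R101H and 14 lower, so 82.1% were higher, beside 82.5% of all shared windows. Limma called none at an adjusted p under 0.05 (smallest 0.162), beside 0.0% of all windows. At an unadjusted p under 0.05 it gave 7, all higher in R101H, beside 20.6% of all windows. They were 3 windows of EIF4G1, 3 of EIF4G3 and 1 of EIF4A3. All R101H values lay above all WT values in 39 of the 78 (background 48.4%) and below in 3 (background 3.84%). These shares lay near or under the background.

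By member, the R101H minus WT differences had medians of 0.75 over 12 windows of EIF4G1, 0.77 over 6 of EIF4G3, 0.54 over 6 of EIF4A2, 0.41 over 12 of EIF4A3, 0.42 over 8 of EIF5A and 0.23 over 12 of EIF4A1. In R62W minus WT the same transcripts had 0.44, 0.36, 0.13 (7 windows), 0.16, 0.27 and 0.13 (13 windows). EIF4G1 and EIF4G3 stood above the median of all windows in both comparisons, which share the WT samples. EIF4A1, EIF4A2 and EIF4A3 lay below it in both, and EIF5A lay below it in R101H minus WT and near it in R62W minus WT. The window with the largest difference from WT was a coding window of EIF4G3, chr1:20851258-20851330, with 1.63 and 1.97 in WT, 2.59 and 4.21 in R101H, a difference of 1.60 with a standard error of 0.62. R62W had 2.30, 2.35 and 3.30 there.

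**Figure D5:**
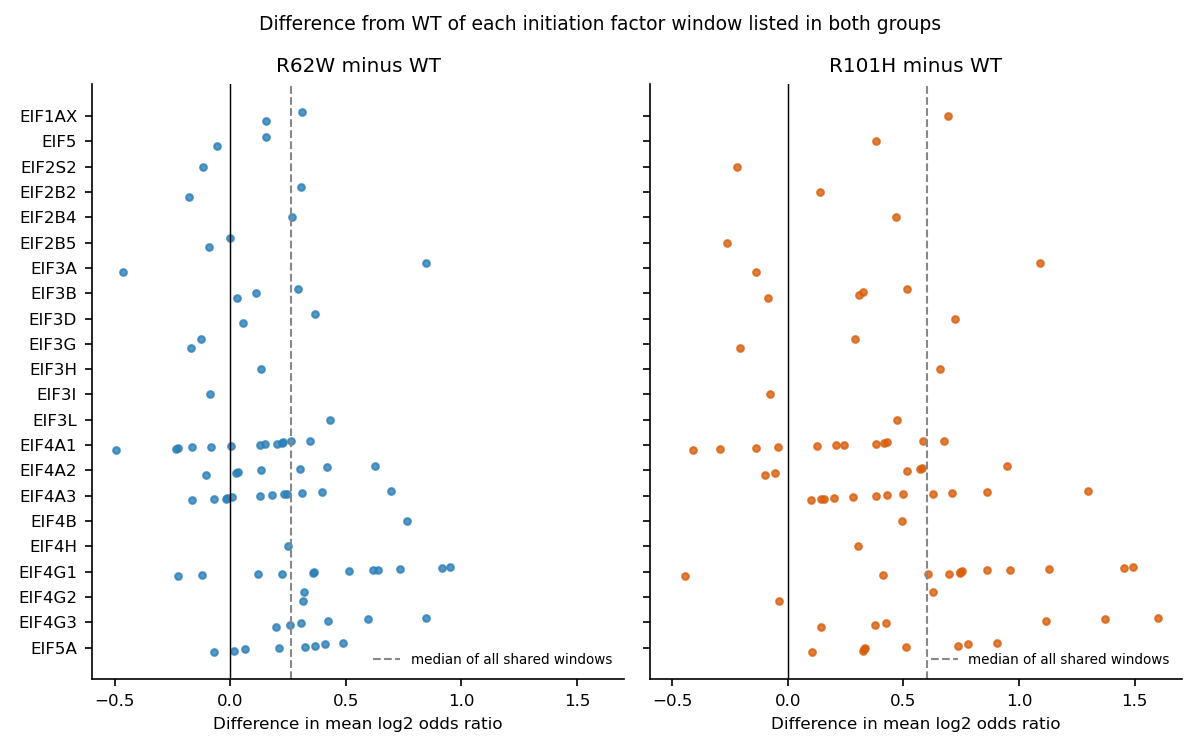
Difference in mean log2 odds ratio from WT (horizontal axis) of every member window listed in both groups, by member (vertical axis), for R62W (left) and R101H (right); each point is a window, and the dashed line is the median over all shared windows, 0.26 and 0.60. The point farthest to the right is an EIF4G1 window at 0.95 for R62W and an EIF4G3 window at 1.60 for R101H, and no window passed the adjusted threshold.

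Among windows that passed in all replicates of each group, 9 member windows could be compared in R101H minus WT, and 3 passed. EIF4G1 chr3:184325036-184325114 was higher by 1.49 with a standard error of 0.36 (limma adjusted p 0.0469), EIF4G3 chr1:20851331-20851404 by 1.37 with 0.34 (0.047) and EIF4G1 chr3:184331946-184332015 by 1.13 with 0.30 (0.049996). All 3 are coding windows whose R101H values lay wholly above WT. The background was 18.2% of 2730 windows. With 10 or more input counts, limma called 2 of 64 member windows, in EIF4G1 and EIF4G3, beside 9.42% of all windows. None of the 9 passed once the differences were centred on the median of the 2730 windows, 0.91, a setting chosen after seeing the data. In R62W minus WT none of the 9 such member windows passed (smallest adjusted p 0.161).

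The input sums behind these comparisons differed, and they cover only replicates in which a window passed. In the 9 member windows enriched in every replicate, R62W and WT had identical summed input counts in 8, with a ratio of sums of 0.999. Those of R101H matched WT in 0 of 9, at a ratio of 0.651, beside 0.664 over all 2730 such windows. Here the sums run over 3 replicates for WT and 2 for R101H, so their ratio does not compare input depth. The part of the input in the differences was not tested. A Fisher exact test on pooled precipitate counts, which compares the pooled libraries only, passed 3 of 9 member windows in R62W minus WT (background 61.1%), 7 of 9 in R101H minus WT (77.1%) and 9 of 225 in R101H minus R62W (2.71%). All were higher in the group named first, and the last 9 were 5 windows of EIF4G1, 3 of EIF5A and 1 of EIF4H.

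R101H and R62W shared 366 member windows of 30 members. Their median difference, R101H minus R62W, was 0.21, as it was over all 59874 shared windows. Of the member windows, 284 were higher in R101H and 82 lower, so 77.6% were higher, beside 71.8% of all shared windows. Limma called none (smallest adjusted p 1, beside 0.0% of all windows), and no member window had an unadjusted p under 0.05, beside 1.64% of all windows that were higher. R101H values lay wholly above R62W in 74 (background 17.9%) and wholly below in 13 (3.59%). EIF4G1 gave 15 of the 74 from 51 shared windows, EIF5A 9 from 25, EIF4B 7 from 24 and EIF4G3 7 from 50. The largest differences among windows enriched in every replicate were 1.08 in an EIF4G2 non-coding isoform exon (chr11:10806886-10806977) and 0.86 in an EIF4G3 coding window (chr1:20941771-20941863), with standard errors of 0.46 and 0.37. In the first, R62W had 1.29, 1.65 and 2.08 and R101H had 2.19 and 3.32. In the opposite direction, an intronic EIF5A window, chr17:7310818-7310917, had 1.66 and 3.61 in R62W and 1.46 and 1.60 in R101H.

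By place in the transcript, the R101H minus WT median was 0.43 over 53 coding member windows beside 0.63 over all coding windows. In 11 windows of the 3′ UTR it was 0.57 beside 0.80. In introns it was 0.41 over 7 member windows, from EIF4G1, EIF5A, EIF1AX and EIF4A1, beside 0.03 over all 1629. The 2 windows of the 5′ UTR had a median of 0.52, as all 5′ UTR windows did. In 5 windows of non-coding isoform exons, from EIF4A1, EIF4A2, EIF3G and EIF4G2, the median was -0.055 and 4 were lower in R101H, beside 0.37 over all 327. These gaps were not tested.

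Other genes of the pathway, 33 regulators, paralogues and partners, were described in the same way. Of these, 8 had no window in any list. Of the 25 listed in any group, 9 had a window in WT, 23 in R62W and 24 in R101H, near the shares of all listed genes (38%, 89.5% and 93.5%), with 33, 260 and 301 windows. PABPC4, a poly(A)-binding protein, had 9, 40 and 36 windows, and DDX3X, a helicase that helps structured mRNAs start, had 7, 32 and 37. EIF4ENIF1, which carries eIF4E into the nucleus, had 1, 32 and 29. The eIF4E inhibitors differed, since EIF4EBP2 had 1, 6 and 12 windows while EIF4EBP1 and EIF4EBP3 had none. PPP1R15B, which directs the phosphatase that reverses eIF2 phosphorylation, had 7, 30 and 30. Limma called none of the 31, 30 and 195 shared windows of these genes in R62W minus WT, R101H minus WT and R101H minus R62W.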

How the data were processed

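The deposited data are 1 table of enriched windows for each of the 3 precipitated groups, from 3 WT, 3 R62W and 2 R101H samples with 3 inputs. Reads were handled with fastp and STAR on GRCh38, per the submitters' processing notes. No version or window caller is given in the sources used here. Per the file headers, counts for precipitate and input were deposited as sums over the replicates in which the window passed. Also per the file headers, log2 values are odds ratios of precipitate over input. The p-values and q-values come from the enrichment test of the authors. The deposited fraction is that of G and C bases, and another deposited column gives the number of passing replicates. From the values, pooled counts allow no count model across replicates, and no library total is given.

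Windows were assigned to a member where its symbol was among the names in the gene column. Replicate values rebuilt from the lowest, mean and highest log2 value were fitted in R 4.3.3 with limma 3.58.1, by lmFit and eBayes, over all windows listed in both groups, without covariates and with Benjamini-Hochberg adjustment at 0.05. The script was tested on simulated data, with a shift larger than any member difference found here. Whether limma finds differences of the size seen here was not tested. Shares carry exact Clopper-Pearson 95% intervals (scipy 1.17.1), which cover counting error only. Coordinates are 1-based on GRCh38. The first bases of transcripts are from RefSeq (GRCh38.p14).

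Windows were named by rule: per list, the 5 highest member windows with 10 or more pooled input counts and the highest of each feature class, and per comparison the 5 largest differences among windows enriched in every replicate and any window with an adjusted p under 0.05. The windows singled out beside these (the EIF2B3 and EIF5 windows, those at RefSeq starts, the intronic EIF5A window, the window listed in WT alone and those with the largest differences) were chosen after their values were seen. Not every window that the rule named is described with its values. One left out is the EIF3G window chr19:10116437-10116527, among the highest in WT. Its mean differed from WT by -0.17 for R62W and by -0.21 for R101H. Windows of EIF4G3, EIF4A1, EIF4A3 and EIF5B were also left out. The members, the gene lists and the tests were chosen with earlier results of these data known. Sequences of the named coding windows, which the rule also asked for, are not printed, and 5′ ends are shown in their place. Other q-value, replicate and input thresholds, equal list lengths, another enrichment measure, centring, eBayes with trend and a Fisher exact test were tried. The repeat element tables were not used here.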

Additional observations from a re-analysis of the deposited data

How the results depend on the processing

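Stricter choices changed how many member windows were listed and kept the order of the counts, with WT lowest. The members' share of each list did not keep that order. With a highest q of at most 0.05, WT listed 22 member windows, R62W 146 and R101H 274. These were 0.737%, 0.646% and 0.635% of all windows at that q. The numbers were 9, 246 and 531 when enriched in every replicate, which for R101H is every listed window. The shares were then 0.256%, 0.639% and 0.569%. With lists cut to the WT length, R62W held 100 and R101H 103 beside 86 in WT, which is 0.649% and 0.669% beside 0.558%. The median log2 odds ratios were then 1.94 in R62W and 2.07 in R101H.

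Coding stayed the most frequent place in every setting. Its share of member windows was 86.4% in WT and 70.5% in R62W at the stricter q, 69.3% in R62W and 68.0% in R101H with 10 or more input counts, and 73.0% and 68.9% with lists of equal length. The intron share was 22.2% in WT and 6.10% in R62W for windows enriched in every replicate, 5.48% in R62W and 8.39% in R101H at the stricter q, 4.02% and 4.33% with 10 or more input counts, and 6.0% and 5.83% with equal lengths. Member windows lay further below all windows in WT when log2 ratios of pooled counts were used, at -0.72 in place of -0.46. At the stricter q, R62W shared 18 and R101H 21 of the 22 WT windows, which is 81.8% and 95.5% in place of 97.7% and 90.7%. When enriched in every replicate, 9 and 9 of 9 were shared, beside 2672 and 2730 of all 3516 such WT windows. In these settings R62W shared 117 of 146 and 225 of 246 with R101H, which is 80.1% and 91.5% in place of 75.2%. Over all windows enriched in every replicate, R62W shared 34309 of 38502 with R101H. At the stricter q the overlap over all windows was not counted.

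Centring turned the median member difference to -0.056 in R62W minus WT, -0.17 in R101H minus WT and -0.00096 in R101H minus R62W. With every-replicate windows and centring together, chosen after seeing the data, the medians from WT were -0.22 and -0.21. Single windows were followed only for the largest differences in each comparison. Of these, EIF4A3 (-0.17 for R62W, -0.044 for R101H), EIF4A1 (-0.22 for R62W) and EIF1AX (-0.21 for R101H) turned. The EIF4G1 and EIF4G3 windows did not. Windows with smaller differences also lay below the medians used for centring, 0.57 for R62W and 0.91 for R101H. Among them were EIF5 chr14:103335061-103335160 (0.15 and 0.38), EIF4A3 chr17:80136004-80136067 (0.25 and 0.16) and EIF4A1 chr17:7576607-7576692 (0.15 and 0.38). In limma, calls over all windows went from 0 to 1 in R62W minus WT with windows enriched in every replicate and again 1 with 10 or more input counts. In R101H minus WT they went from 0 to 498 and 654, with 3 and 2 member windows. The Fisher test on pooled counts called 1632, 2106 and 929 windows, with 3, 7 and 9 of members. The causes were not tested.

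No paired analysis was possible because the columns carry no replicate numbers, and for the same reason leaving out each replicate in turn was not possible. Limits are set by the low counts, by values that exist only for windows past the authors' threshold, and by 2 R101H samples.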
